A study of Mus musculus with 12 samples.

Results

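The genes described here are 10 markers of mesothelial cells, the flat cells that line the serosal surface of the cecum, namely Upk3b, Upk1b, Lrrn4, Wt1, Msln, Rspo1, Pdpn, Muc16, Bnc1 and Aldh1a2. They were taken by gene name as markers of that cell type, and they are 10 of the 37067 genes measured. The gene name in the scanner output matched 9 of the 10, and Muc16 was matched through its RefSeq accession. The 10 genes were covered by 12 probes, with a pair of probes each for Upk1b and Wt1, and the brightest probe by its mean stands for its gene unless another is named.

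RNA from the cecum of C57BL/6 mice was hybridised to 1-colour Agilent arrays of mouse transcripts, 12 arrays in all. There were 4 groups of 3 arrays, a sham control and cauterized cecum of the 3 h, the 12 h and the 72 h time point. The injury was made by bipolar forceps in coagulation mode after a midline incision, and it is a model of postoperative adhesion. The methods place the sham samples at 0 h, so time after the operation and cauterization cannot be told apart. All samples were labelled male, and the age of the mice was not analysed here. The study describes the samples as biological triplicates.

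Mesothelial cells form an epithelium of mesodermal origin that keeps the peritoneal surfaces smooth and lets organs slide past each other. After injury of the serosa they can be lost, can divide, and can take on features of mesenchymal cells such as myofibroblasts. They carry uroplakins, mesothelin and podoplanin at the cell surface and the transcription factor Wt1 in the nucleus. In whole tissue, fewer cells of a type and less RNA per cell cannot be told apart.

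The arrays went against the label of the sex. Xist, the RNA that coats the inactive X chromosome of female cells, was well above background on all 12 arrays, with scaled log2 signals of -0.50, -0.87 and -0.57 on the sham arrays. The Y-linked genes Ddx3y and Eif2s3y were well above background on 0 arrays. Among the other Y-linked genes, the brightest probe of Kdm5d reached that level on all 12, its other probes on 0, and a probe of Uty did so on 1 array. The defining markers of the labelled tissue were present, since all 8 genes of the intestinal epithelium and all 7 of smooth muscle were well above background on every array of at least 1 group. Of the pancreas genes, 2 of 4 reached that level, as did 23845 of all 37067 genes.

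Values below are log2 of the background-corrected intensity minus the 75th percentile of that array, so 0 is the 75th percentile, and each spread is an SD over 3 arrays. Adjusted p is that of limma throughout. A probe was called different between groups at a fold change over 2 and an adjusted p under 0.05 in limma, with p adjusted over 56605 probes. Where a probe was not well above background on any array of 1 group, the fold is a lower bound. The bound sets the mean of the bright group against the mean, in the dim group, of the lowest scaled signal well above background on each array or the probe's own signal if higher.

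Among the surface proteins, Upk3b, a uroplakin found on mesothelium, was below background at the early times and above it again at 72 h. Its scaled log2 signal was -3.35, -3.02 and -3.31 in sham cecum, -7.27, -7.42 and -7.51 on the 3 h arrays, -7.29, -7.76 and -7.35 on the 12 h arrays and, for 72 h, -2.03, -3.38 and -4.23. All sham and 72 h arrays were well above background and all 3 h and 12 h arrays were not, and the arrays of the early times did not overlap with the others. Upk3b was at least 4.12-fold lower at 3 h than in sham cecum (adjusted p = 0.000234) and at least 4.91-fold lower at 12 h (adjusted p = 0.000149). From 12 h to 72 h it was at least 4.95-fold higher (adjusted p = 0.000326). At 72 h the mean was -3.21 ± 1.11, against -3.23 ± 0.18 in sham cecum, and the sham arrays lay within the range of the 72 h arrays. The probe lies at chr5:136520522-136520581 of mm9.

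Lrrn4, a leucine-rich repeat membrane protein, followed the same order. The sham arrays gave -3.40, -3.18 and -3.60, the 3 h arrays -7.51, -6.00 and -7.48, the 12 h arrays -7.44, -7.74 and -7.52, and the 72 h arrays -1.46, -2.37 and -3.73. Again 0 of the 6 early arrays were well above background, against all 6 of the others. Lrrn4 was at least 3.67-fold lower at 3 h (adjusted p = 0.00161) and at least 4.38-fold lower at 12 h (adjusted p = 0.000515) than in sham cecum. It was at least 8.01-fold higher at 72 h than at 12 h (adjusted p = 0.00041), while 72 h and sham arrays overlapped, with a difference of 0.87 ± 0.54 (SE) on the log2 scale (adjusted p = 0.295). The size of these falls depends on the background correction and on any constant added to the intensities. The alternative, normexp, was run with a constant added to every spot, which by itself shrinks log2 differences of dim probes. It therefore cannot tell how large these falls were. With normexp in place of the main correction, the log2 change at 3 h was -0.54 for Upk3b (adjusted p = 0.0615) and -0.44 for Lrrn4 (adjusted p = 0.162), both in the same direction but past no threshold. At 12 h against sham it was then -0.76 for Upk3b (adjusted p = 0.0104) and -0.65 for Lrrn4 (adjusted p = 0.0361), and from 12 h to 72 h 0.70 for Upk3b and 0.96 for Lrrn4, all under the fold threshold.

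Upk1b, the tetraspanin that partners uroplakins, did not share the early fall. Its lead probe read -3.39, -3.31 and -2.80 in sham cecum, -2.49, -2.47 and -2.83 on the 3 h arrays, -3.10, -2.99 and -3.42 on the 12 h arrays and, for 72 h, -0.87, -1.48 and -1.84. Every array was well above background, and the 72 h arrays were above all the others. The log2 difference from sham was 1.77 ± 0.25 (SE) at 72 h (adjusted p = 0.00124), 0.57 at 3 h (adjusted p = 0.148) and near 0 at 12 h (adjusted p = 0.999). The other probe of Upk1b gave 1.91 at 72 h (adjusted p = 0.00196), and it was below background on 1 array of the 3 h group. With normexp and its added constant, the lead probe of Upk1b stayed under the fold threshold, at 0.87 for 72 h against sham (adjusted p = 0.000462) and 0.93 for 72 h against 12 h (adjusted p = 0.00135).

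Of the transcription factors, Wt1, which marks mesothelium and is also known from kidney and gonad development, read -3.00, -2.85 and -3.21 in sham cecum, -4.01, -2.66 and -2.41 on the 3 h arrays, -2.97, -3.65 and -1.94 on the 12 h arrays and, for 72 h, 2.51, 0.94 and 0.66. The first 3 groups overlapped, and each 72 h array was above every other array. From 12 h to 72 h the log2 difference was 4.22 ± 0.58 (SE) (adjusted p = 0.00132). Differences from sham were near 0 at 3 h (adjusted p = 0.997) and 0.17 at 12 h (adjusted p = 0.945), and 4.39 at 72 h (adjusted p = 0.00085). Sham and 72 h arrays share no slide, and with slide as a block the difference at 72 h was 3.02 and no longer called (adjusted p = 0.133).

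The second Wt1 probe moved in the same direction by less, with a log2 difference of 1.77 at 72 h from sham (adjusted p = 0.0203) and 1.88 from 12 h (adjusted p = 0.0177). Its sham arrays read -4.21, -4.19 and -4.25 and its 72 h arrays -1.15, -2.76 and -3.43. This probe shares a run of 16 bases with 3 other genes, and the lead probe of Wt1 with 0.

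Bnc1, basonuclin, a zinc finger protein of epithelial and germ cells, was not well above background on any array of the sham, 3 h and 12 h groups. The sham arrays read -6.02, -6.76 and -6.83, the 3 h arrays -7.65, -7.36 and -7.46, the 12 h arrays -7.91, -7.73 and -7.54, and the 72 h arrays -3.19, -4.20 and -5.09. Only the 72 h arrays were above background, and they were above all the others. Bnc1 at 72 h was at least 2.60-fold higher than in sham cecum (adjusted p = 0.00289) and at least 2.57-fold higher than at 12 h (adjusted p = 0.000507). With slide as a block the call against sham was lost, with a log2 difference of 2.09 (adjusted p = 0.174). With normexp and its added constant, the log2 difference at 72 h from sham was 0.12 (adjusted p = 0.326) and that from 12 h was 0.29 (adjusted p = 0.035).

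Among the secreted factors and enzymes, Rspo1, which strengthens Wnt signals through Lgr receptors, was measured on all 12 arrays. It read -1.28, -1.33 and -1.51 in sham cecum, -4.78, -3.82 and -4.43 on the 3 h arrays, -3.81, -4.28 and -3.40 on the 12 h arrays and, for 72 h, 0.99, -0.04 and -0.63. The early arrays were below every sham array, and every 72 h array was above them. The log2 change from sham was -2.97 ± 0.39 (SE) at 3 h (adjusted p = 0.00085) and -2.45 at 12 h (adjusted p = 0.00173). At 72 h Rspo1 was 3.94 above the 12 h arrays on the log2 scale (adjusted p = 0.000307). Its difference of 1.48 from sham at 72 h (adjusted p = 0.0241) rests on single arrays, since the call was lost without any 1 of the sham arrays and without the first or second 72 h array. The adjusted p in limma was then between 0.0505 and 0.0653, and the log2 difference without the first 72 h array was 1.04. Over all arrays it was 0.84 and not called with slide as a block (adjusted p = 0.51).

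Aldh1a2, an enzyme that makes retinoic acid, read -0.29, -0.06 and 0.03 in sham cecum, -0.47, -0.85 and -1.04 on the 3 h arrays, -0.29, 0.24 and 0.19 on the 12 h arrays and, for 72 h, 1.58, 0.77 and 0.75. The 3 h arrays were the lowest and did not overlap with sham, and the 72 h arrays were the highest. From 12 h to 72 h the difference of 0.98 was just under the fold threshold (adjusted p = 0.0225), with 0.71 to 1.12 when single arrays were left out. At 72 h the log2 difference from sham was 1.13 ± 0.25 (SE) (adjusted p = 0.0103), and without the first 72 h array it was 0.86, under the fold threshold. Over all arrays it was 0.91 and not called with slide as a block (adjusted p = 0.285). The difference of -0.68 at 3 h did not pass the test (adjusted p = 0.0875).

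Of the glycoproteins, Pdpn, podoplanin, which lines mesothelium, lymphatic vessels and some fibroblasts, rose at every time. It read 1.03, 0.90 and 1.29 in sham cecum, 2.74, 2.83 and 2.78 on the 3 h arrays, 3.22, 3.42 and 3.45 on the 12 h arrays and, for 72 h, 3.80, 3.60 and 3.54. The groups did not overlap, and each later group lay above the one before. The log2 difference from sham was 1.71 ± 0.13 (SE) at 3 h (adjusted p = 4.13e-05), 2.29 at 12 h (adjusted p = 6.93e-06) and 2.57 at 72 h (adjusted p = 6.38e-06). The step of 0.58 from 3 h to 12 h had a limma adjusted p of 0.0224 and stayed under the fold threshold, and that of 0.29 from 12 h to 72 h did not pass the test (adjusted p = 0.16).

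Msln, mesothelin, a surface glycoprotein, varied within groups more than between them. It read 0.59, 0.01 and 0.60 in sham cecum, -5.73, 0.06 and 0.62 on the 3 h arrays, 0.33, -2.18 and 0.46 on the 12 h arrays and, for 72 h, 0.95, 0.02 and 0.33. The first 3 h array was not well above background and the second 12 h array was low, while the remaining arrays of those groups lay within the sham range or near it. No comparison of Msln passed the test, with differences from sham of -2.08 ± 1.41 (SE) at 3 h (adjusted p = 0.319) and 0.03 at 72 h (adjusted p = 0.989). The Msln probe shares a run of 16 bases with 1 other gene.

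Muc16, a membrane mucin, read 1.14, 1.09 and -1.27 in sham cecum, 0.09, 0.32 and 1.0 on the 3 h arrays, -0.44, -0.91 and -0.75 on the 12 h arrays and, for 72 h, 0.07, 0.29 and -1.29. The third sham array and the third 72 h array were low. The log2 difference at 12 h from sham was -1.02 ± 0.63 (SE) (adjusted p = 0.302), and without the third sham array it was -1.82 (adjusted p = 0.0191).

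**Figure D1:**
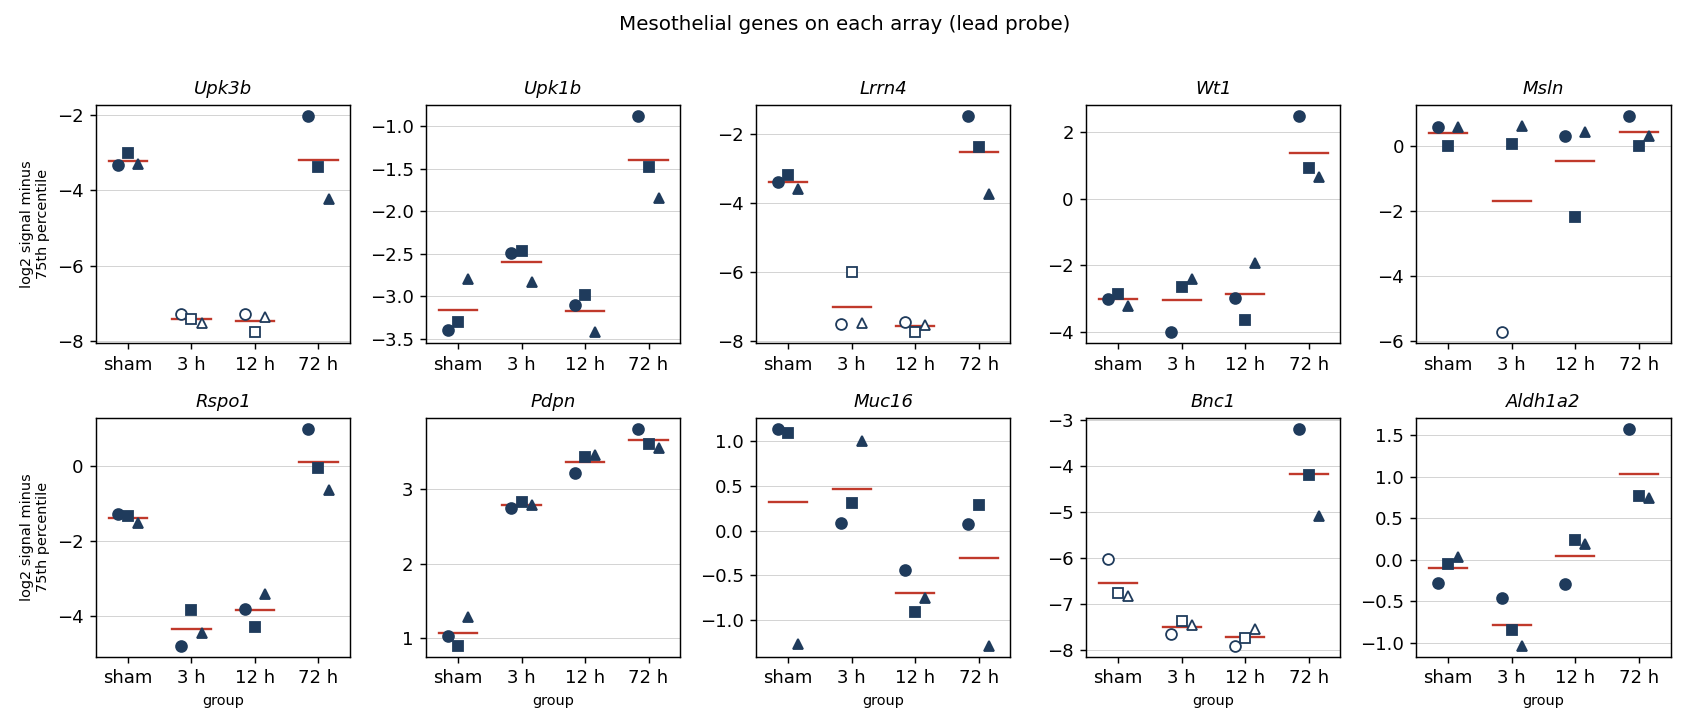
Scaled log2 signal of the 10 mesothelial genes (y axis, log2 intensity relative to the array's 75th percentile) in the 4 groups (x axis), with circles, squares and triangles for replicates 1, 2 and 3, open symbols for arrays not well above background and red lines for group means. Upk3b and Lrrn4 were below background on all 6 arrays of 3 h and 12 h, and Pdpn was higher than in sham cecum at each time.

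Counted together, 3 of the 10 members were lower at 3 h than in sham cecum (Upk3b, Lrrn4 and Rspo1), where 4.32% of all genes were called lower, and 1 was higher (Pdpn), where 3.14% were called higher. At 12 h the count was again 3 lower, against 5.33% of all genes, and 1 higher, against 3.96%. At 72 h, 6 members were higher than in sham cecum (Upk1b, Wt1, Rspo1, Pdpn, Bnc1 and Aldh1a2), against 4.5% of all genes, and 0 were lower, against 4.4%. From 12 h to 72 h, 6 were higher (Upk3b, Upk1b, Lrrn4, Wt1, Rspo1 and Bnc1), against 4.49% of all genes, and 0 lower, against 2.94%. From 3 h to 12 h limma called 0 members in either direction, against 1.86% of all genes higher and 1.6% lower, while 3 of the 10 had an unadjusted p under 0.05, as did 24.6% of all genes. The methods name a paired t-test for 2 groups in general and no test for the arrays. A paired test by replicate number called 0 of all 37067 genes from 3 h to 12 h, so its 0 for the members says nothing about them. By that test, 2 members and 15.1% of all genes had an unadjusted p under 0.05. The median log2 difference of the 10 members from sham was -0.82, -0.94 and 1.31 at the successive times, where that of all genes was 0.06, -0.04 and -0.15. The comparisons with sham share the same 3 sham arrays. Each p measures the spread between these samples, and 3 arrays per group limit the precision.

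The arrays lay on 2 slides, with sham, 3 h and 2 of the 12 h arrays on the first and the third 12 h array and all 72 h arrays on the second. With slide as a block, 4 members were called at 3 h and 4 at 12 h, as without it, and 6 from 12 h to 72 h. Over all genes the block left 1159 higher and 1605 lower at 3 h and 1504 and 2127 at 12 h, and from 12 h to 72 h 708 and 512, where 1664 and 1091 were called without it. Within the second slide, the 72 h arrays were 3.31 above the single 12 h array for Wt1 and 3.51 above it for Rspo1 on the log2 scale. The calls from 12 h to 72 h within that slide assume that its lone 12 h array varies like the other groups. Within the first slide, Rspo1 at 12 h differed from sham by -2.67 (adjusted p = 0.00338), while Upk3b was below background on the 12 h arrays of both slides, so that only its bound holds. For 72 h against sham, which no slide holds together, the block left 2 of the 6 calls, Upk1b at 2.15 (adjusted p = 0.0419) and Pdpn at 2.44 (adjusted p = 0.00144). Over all genes that comparison went from 1668 higher and 1632 lower to 571 and 577. The calls of Wt1, Bnc1, Aldh1a2 and Rspo1 were lost, with the values given above.

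Within the 72 h group the members were ordered alike. The first array was the highest for 9 of 10 members and the third array the lowest for 9 of 10. The share of all genes with that order was not counted, so how particular it is to the members is not known. The summed scaled signal of the 8 fibroblast genes had the same order, with 194, 142 and 114, and that of the 20 genes of mesothelial to mesenchymal transition as well, with 411, 303 and 261. The macrophage genes (62.6, 58.8 and 56.0) and those of the female reproductive tract and gonad (5.67, 3.09 and 3.00) shared it too. Smooth muscle had the reverse, as did other lists, such as the keratins shared with the gut epithelium (300, 401 and 432) and the paralogues of the members (13.8, 18.1 and 20.4). The sum of the 13 further mesothelial genes had neither order, with 23.7, 19.8 and 22.6. Such sums weigh the brightest genes most, here Anxa8 and, for the paralogues, Aldh1a1. Gene by gene, Nkain4, Ildr2, Prg4, Efemp1, Tbx18 and Gata6 had the members' order. Krt7, Anxa8 and Calb2 had the reverse, and Gpm6a, Dmkn, Pkhd1l1 and Gata4 neither. Of the paralogues above background, Lrrn2 and Bnc2 had the members' order. Aldh1a1, Aldh1a3, Upk3bl, Rspo3 and Muc4 had the reverse, and Upk1a, Lrrn3 and Muc1 neither. Genes of fat cells had the order of the members. The summed scaled signals of the 6 listed genes were 103, 34.7 and 1.74 on the first, the second and the third 72 h array, 15.5, 24.0 and 11.47 for sham, 4.58, 6.55 and 2.93 for 3 h, and 3.54, 6.57 and 2.05 for 12 h. The fat list had a median log2 difference from sham of -3.66, -3.16 and 0.01 at the successive times, with 0 of 6 genes called by limma in any comparison, and Cidec was its brightest gene by the mean over 12 arrays. Cfd, the adipocyte protease adipsin, was well above background on all sham arrays, on the second array alone at 3 h and 12 h, and on the first and second arrays at 72 h, and so was Adipoq, the gene of adiponectin. Upk3b and Lrrn4 were below background on the second arrays of 3 h and 12 h, where Cfd read 1.34 and 0.62, and were above it on the third 72 h array, where Cfd read -7.98 and was not. The part of these cell types in the values of the members was not tested. Without the first 72 h array, 4 members were called higher at 72 h than in sham cecum, with 1379 of all 37067 genes higher and 1409 lower.

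**Figure D2:**
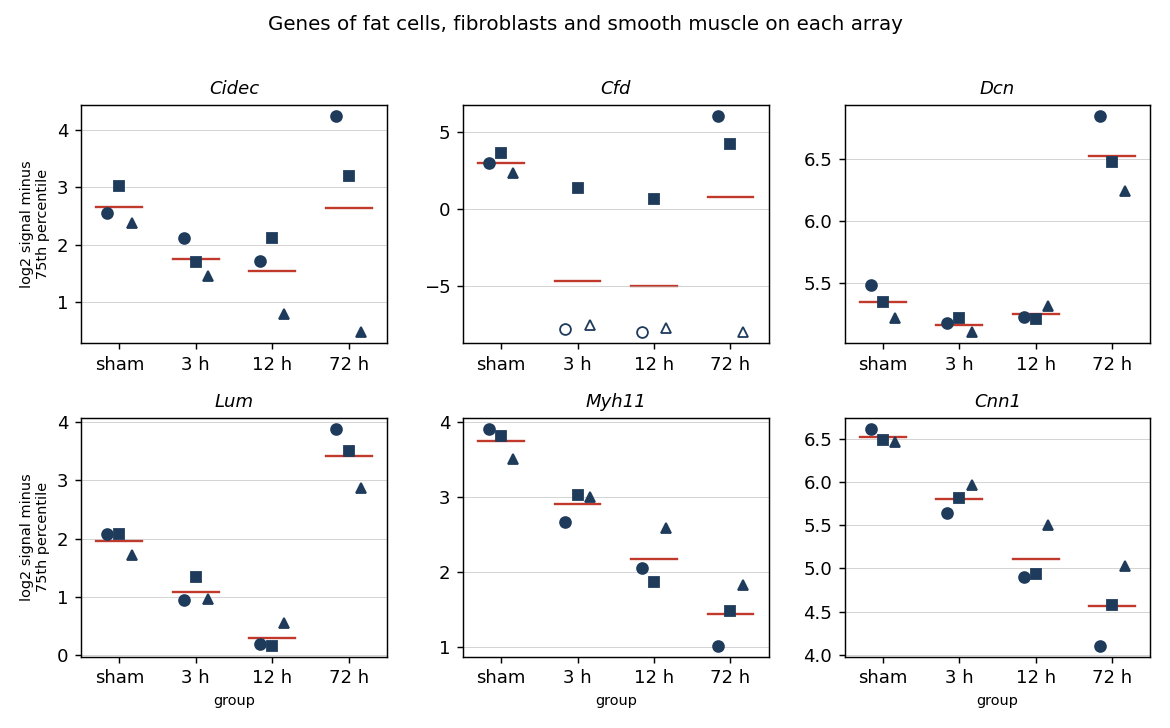
Scaled log2 signal (y axis, log2 intensity relative to the array's 75th percentile) of genes of fat cells (Cidec, Cfd), fibroblasts (Dcn, Lum) and smooth muscle (Myh11, Cnn1) in the 4 groups (x axis), with circles, squares and triangles for replicates 1, 2 and 3, open symbols for arrays not well above background and red lines for group means. The third 72 h array was the lowest of that group for Cidec and Cfd, at 0.47 and -7.98.

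A further 13 genes known from mesothelium were examined as a list, of which the number higher than in sham cecum was 3, 4 and 5 at the successive times and the number lower 2, 2 and 3. The 3 lower at 72 h include Gata4, which was not well above background on any array of either group. Gata4, a transcription factor named here after its values were seen, was above background on all 3 h and 12 h arrays and at least 3.33-fold higher at 12 h than in sham cecum (adjusted p = 0.000898). The median log2 difference was -0.07, -0.31 and 0.07 in that order. Prg4, the lubricant lubricin, read -5.42, -5.57 and -6.44 in sham cecum and -0.61, 0.21 and 1.90 on the 3 h arrays, which differ by 6.31 (adjusted p = 0.00203) with 2 of 3 sham arrays above background. Anxa8, a membrane-binding annexin, was 3.51 higher at 12 h on the log2 scale (adjusted p = 1.83e-05) and Dmkn, a secreted epithelial protein, was 2.88 higher at 72 h (adjusted p = 6.1e-05). Tbx18, a transcription factor of the embryonic epicardium, was below background on all 9 arrays outside 72 h and at least 6.03-fold higher at 72 h than in sham cecum (adjusted p = 0.00188), with -1.21, -2.82 and -4.81 on the 72 h arrays. The genes of the list that were lower are named here after their values were seen. Gpm6a, a neuronal membrane glycoprotein also found in mesothelium, differed from sham by -1.57 at 3 h (adjusted p = 0.00716) and by -2.47 at 12 h (adjusted p = 0.000487), where 1 of 3 arrays was above background. Ildr2 was at -1.52 at 3 h (adjusted p = 0.0275), with 2 of 3 arrays above background, and at 2.18 at 72 h (adjusted p = 0.0048). Efemp1, a matrix protein, was at -1.80 at 12 h (adjusted p = 0.000231). At 72 h Calb2, the calcium-binding protein calretinin, was at -1.73 (adjusted p = 0.0114), with 1 of 3 arrays above background, and Pkhd1l1 at -1.05 (adjusted p = 0.0262), with 2 of 3. Krt7 and Gata6 were called in 0 comparisons, with log2 differences at 72 h of 0.02 and 0.03. The keratins Krt8, Krt18 and Krt19, which mesothelium shares with the gut epithelium, had 1 of 3 called, Krt18 at 3 h with 1.15 (adjusted p = 0.00313).

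Genes related to the members did not all move with them. Of 16, which were paralogues and Wt1os, the transcript opposite to Wt1, the number higher than in sham cecum was 2, 2 and 5 at the successive times, and the number lower 2, 2 and 3. Well above background in at least 1 group were 10 of the 16, against 23845 of all 37067 genes. Aldh1a1 was -2.79 at 72 h on the log2 scale from sham (adjusted p = 2.46e-05), where Aldh1a2 was higher, and Aldh1a3 was 2.56 higher already at 3 h (adjusted p = 0.000414). Upk3bl was 1.26 higher at 72 h (adjusted p = 0.0321), and Lrrn2 was 2.02 higher at 72 h than at 12 h (adjusted p = 0.0211). Muc4 was -1.14 at 72 h (adjusted p = 0.00146), while Upk1a was called in 0 comparisons. Bnc2, named here after its values were seen, was at -1.58 at 3 h (adjusted p = 0.00627), -1.10 at 12 h (adjusted p = 0.0296) and 1.20 at 72 h (adjusted p = 0.0219) from sham.

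Of 20 genes tied to the transition of mesothelial to mesenchymal cells, the number higher than in sham cecum was 3, 6 and 11 at the successive times and the number lower 1, 3 and 1. The median difference at 72 h was 1.18. Thbs1, a matrix glycoprotein, was 4.55 higher at 12 h (adjusted p = 4.68e-05) and S100a4 2.32 higher at 72 h (adjusted p = 0.00152). Col1a1, the chain of type I collagen, was -1.66 at 12 h (adjusted p = 0.00171) and 2.99 at 72 h (adjusted p = 8.56e-05). Acta2, smooth muscle actin, was lower at each time, with -1.55 at 12 h (adjusted p = 0.000756), and the epithelial cadherin Cdh1 was called in 0 comparisons. All 7 smooth muscle genes were lower at 12 h and 6 of 7 at 72 h, 2 of 7 at 3 h, and their summed scaled signal was 306, 294 and 284 in sham cecum and 92.5, 116 and 127 at 72 h. Myh11 was -2.31 at 72 h (adjusted p = 0.000232), Cnn1 -1.96, Des -1.56 and Smtn -1.48. Acta2 is shared by smooth muscle, and the part of that tissue in its fall was not tested.

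Around Aldh1a2, 12 genes of the retinoic acid pathway were measured, of which 1 was higher and 3 lower at both 3 h and 12 h, and 3 higher and 1 lower at 72 h. Rdh10, which makes retinal, was 2.08 higher at 3 h (adjusted p = 5.61e-05). Cyp26b1, which breaks retinoic acid down, was -2.29 at 3 h (adjusted p = 0.00669) and Crabp1, a carrier of retinoic acid, -1.36 at 12 h (adjusted p = 0.0164). Rxra and Dhrs3 were called in 0 comparisons.

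Around Rspo1, 10 receptors and Wnt feedback genes were measured, of which 2 were lower at 3 h and 3 at 12 h, with 0 called by limma at 72 h. From 12 h to 72 h, 3 of them were higher. Axin2, a feedback target of Wnt signals, read -1.74, -1.81 and -1.80 in sham cecum, -3.83, -3.64 and -3.36 at 12 h and -2.16, -2.12 and -1.85 at 72 h. The 12 h arrays were below both other groups, with a log2 change of -1.83 from sham (adjusted p = 0.000213) and 1.56 on to 72 h (adjusted p = 0.000904). Nkd1 was -1.21 at 3 h (adjusted p = 0.00255) and the receptor Lgr5 was -1.03 at 12 h (adjusted p = 0.00816). Ctnnb1 and Rnf43 were called in 0 comparisons.

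Around Pdpn, 2 of 8 partners and genes of lymphatic endothelium were higher at 3 h, 2 at 12 h and 3 at 72 h, and 0 lower. Cd44, which binds podoplanin, was 1.83 higher at 12 h (adjusted p = 2.54e-05), Msn, a linker to actin, was 1.55 higher at 12 h (adjusted p = 0.00036), and Clec1b, the platelet receptor of podoplanin, was 1.58 higher at 3 h (adjusted p = 0.00974) with 2 of 3 sham arrays above background. Ezr and Ccl21a were called in 0 comparisons.

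Genes of other cell types also differed between the same groups. Of 8 fibroblast genes, 0 were called at 3 h, 3 were lower at 12 h and 3 higher at 72 h, with summed scaled signals of 80, 74.5 and 68.7 in sham cecum and 194, 142 and 114 at 72 h. Lum was -1.67 at 12 h (adjusted p = 0.00108) and 1.46 at 72 h (adjusted p = 0.00283), and Dcn 1.17 at 72 h (adjusted p = 0.000647). All 5 macrophage genes were higher at 72 h and 2 of 5 at 12 h, with Adgre1 at 2.65 (adjusted p = 4.69e-05). Of 8 epithelial genes, 0 were called at 3 h and 1 was lower at 12 h and at 72 h, Slc26a3 at -1.60 at 72 h (adjusted p = 0.000572). Of 4 genes of skeletal muscle, 2 were lower at 12 h and 1 at 72 h, Ckm at -3.00 (adjusted p = 8.55e-05), and of 4 pancreas genes 0 were called. Of 10 proliferation genes, 1 was lower at 12 h, Ccnb2 at -1.12 (adjusted p = 0.0102), and 0 were called at 72 h. Of 8 genes of the female reproductive tract and gonad, which share Wt1 with mesothelium, 1 was higher at 3 h, 1 higher and 1 lower at 12 h, and 4 higher at 72 h, with Lhx9 at 3.82 at 12 h (adjusted p = 0.000158), Amhr2 at 1.78 at 72 h (adjusted p = 0.00614) and Esr1 at 2.37 at 72 h (adjusted p = 0.0223). Pax8 and Hoxa11 of that list were called in 0 comparisons. Emx2, named here after its values were seen, had the largest difference of that list at 72 h from sham. It was below background on every sham, 3 h and 12 h array, so the size of that difference is not a fold. On the 72 h arrays it read 0.23, -1.87 and -6.08, with 2 of 3 above background. With slide as a block, 22 of the 40 called values of the named genes outside the 10 members at 72 h against sham were no longer called, and within slides 12 of 27 from 12 h to 72 h and 3 of 31 at 12 h against sham. What part these cell types had in the values of the members was not tested.

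The genes most like the members in pattern were found by correlation with the mean of the 10 members, each centred and scaled over the 12 arrays. Among 18700 candidates the 8 highest were Plekhg1, Kank3, Mmp23, Bmp1, Ddah2, Itm2c, Serping1 and Col5a3, with Pearson r from 0.983 to 0.988 over 12 arrays, which fall in 4 groups. Among them, Col5a3 is a collagen chain and Bmp1 a protease that trims procollagen. Their pattern over the groups follows from how they were picked. Between members, r over the same arrays was 0.973 for Upk3b and Lrrn4, 0.944 for Upk3b and Rspo1, and -0.338 for Upk3b and Pdpn.

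Upstream sequence is shown for 3 members, Upk3b and Lrrn4 because they fell and returned together and Bnc1 because it appeared at 72 h. RefSeq promoter windows on GRCm38.p6 were given for 7 of the 10 members, and the 250 bases before the annotated start were searched on both strands for TATAAA (the TATA box), for GGGCGG (the GC box), for CATTCC (bound by TEAD factors), for TTCNNNGAA (STAT factors) and for GTGGGCG (WT1 and EGR factors). Of 32851 windows, 12.4% hold TATAAA, 32.7% GGGCGG, 12.6% CATTCC, 7.02% TTCNNNGAA and 7.02% GTGGGCG. Upk3b and Lrrn4 each have 1 match to CATTCC, and Bnc1 has 5 to GGGCGG and 1 to GTGGGCG, which overlaps 1 of the GGGCGG matches with both read on the strand opposite to the printed one. The windows of Rspo1, Pdpn, Muc16 and Aldh1a2 hold 0 matches to any of these motifs. The sequences lie at chr5:136038246-136038495 (plus strand), chr2:132880863-132881112 (minus strand) and chr7:81992300-81992549 (minus strand), and capitals mark the matches, each a description and not a site.
Upk3b: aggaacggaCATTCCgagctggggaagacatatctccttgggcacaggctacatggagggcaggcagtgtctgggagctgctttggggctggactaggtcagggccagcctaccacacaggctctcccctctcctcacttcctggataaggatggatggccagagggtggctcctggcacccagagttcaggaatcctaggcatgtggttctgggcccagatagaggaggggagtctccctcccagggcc
Lrrn4: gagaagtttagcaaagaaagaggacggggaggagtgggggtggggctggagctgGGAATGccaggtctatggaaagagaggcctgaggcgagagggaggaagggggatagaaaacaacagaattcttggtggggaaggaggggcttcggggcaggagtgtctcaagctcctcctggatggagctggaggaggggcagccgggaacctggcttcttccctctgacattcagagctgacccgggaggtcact
Bnc1: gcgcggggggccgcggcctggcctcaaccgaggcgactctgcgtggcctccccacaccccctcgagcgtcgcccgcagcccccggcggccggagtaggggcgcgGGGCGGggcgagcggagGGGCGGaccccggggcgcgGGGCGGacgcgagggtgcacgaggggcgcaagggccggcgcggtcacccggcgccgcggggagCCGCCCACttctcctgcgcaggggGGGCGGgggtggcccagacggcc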

How the data were processed

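The deposited scanner output of Feature Extraction 11.5.1.1 held a background-corrected intensity for every spot, and the table that the authors deposited held log2 values centred on each probe's median. Spots of controls and outlier spots (53 to 152 per array) were left out, spots of a probe were averaged to 56605 probes of 37067 genes, and log2 intensity was scaled to the 75th percentile of each array. Of the probes, 46291 were named by the file, 45 through RefSeq and 10269 not. Well above background held for 60.2% to 65.2% of probes. Groups were compared with limma 3.58.1 in R 4.3.3 (data.table version 1.17.8), Benjamini-Hochberg adjusted over all probes. The steps were tested on simulated data.

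The members and gene lists were chosen with earlier results of these data known. Named genes were, per list, up to 4 called genes with the largest change at 72 h from sham and up to 2 others with the highest mean signal, and 8 genes most like the members. Other genes were named as markers or after their values were seen. Alternatives were quantile scaling, a percentile over bright probes, normexp, the authors' table, a filter or floor for dim spots, outlier spots kept, slide and replicate blocks, within-slide fits, means over probes, another variance model, the 2 groups alone, no fold threshold, a paired test by replicate number and leaving out each array. Normexp was run with a constant added to every intensity.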

Additional observations from a re-analysis of the deposited data

Results flagged for a closer look

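For 6 members the response at 72 h differed from that at 12 h when tested directly. The log2 difference of 72 h minus 12 h was 4.25 for Upk3b, 1.77 for Upk1b, 5.04 for Lrrn4, 4.22 for Wt1, 3.94 for Rspo1 and 3.56 for Bnc1 in limma. Upk3b, Lrrn4 and Bnc1 were not well above background on any 12 h array, so the size of their differences is not a fold.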

How the results depend on the processing

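With single arrays left out, the count of members called was 4 to 4 at 3 h and 4 to 5 at 12 h against sham, 4 to 6 at 72 h against sham, 0 to 0 from 3 h to 12 h and 6 to 7 from 12 h to 72 h. Over all genes those fits called 1035 to 1253 higher and 1134 to 1705 lower at 3 h against sham. At 12 h they called 1302 to 1513 and 1559 to 2232, and at 72 h 1379 to 1763 and 1266 to 1813. From 3 h to 12 h they called 380 to 696 and 398 to 598, and from 12 h to 72 h 1311 to 1861 and 792 to 1318. The constant added with normexp shrinks log2 differences of dim probes by itself. With normexp the count of members was 2 at 3 h against sham, 2 at 12 h against sham, 4 at 72 h against sham and 2 from 12 h to 72 h. Over all genes normexp left 614, 795 and 834 higher than sham and 216, 554 and 426 lower at the successive times, and 603 higher and 467 lower from 12 h to 72 h. With slide as a block it was 2 members at 72 h against sham, and with no fold threshold 1 from 3 h to 12 h, where 1381 of all 37067 genes were higher and 1998 lower. A paired test by replicate number gave 0 in each comparison, and over all genes 1 higher and 1 lower at 12 h against sham and 0 in the others. With replicate as a block the counts were 4, 4, 6, 0 and 6, as without it. Pairing was also looked at after each gene's group mean was taken out, over genes above background. Between these deviations, Pearson r for arrays of the same number in different groups had a median of -0.0025 and a highest value of 0.183. For other pairs the median was -0.026 and the highest value 0.309, so these deviations gave no sign that the numbers pair the samples. The cause of these changes was not tested.

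Differences that turned direction were called under neither setting. With normexp, Upk3b at 72 h minus sham was -0.058, Wt1 at 3 h minus sham 0.082 and at 12 h minus 3 h -0.046, and Rspo1 at 12 h minus 3 h -0.026. With slide as a block, Upk3b at 72 h minus sham was -0.16 and Msln -1.35. With the block and within slides alike, Msln at 72 h minus 12 h was -0.024, Upk1b at 12 h minus sham 0.12, Wt1 at 12 h minus sham -0.29 and Wt1 at 12 h minus 3 h -0.28. Upk1b at 12 h minus sham was 0.16 with quantile scaling, 0.028 in the authors' table and 0.14 as a mean of its probes. Wt1 at 3 h minus sham was 0.18 with quantile scaling and 0.021 in the authors' table.

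With single arrays left out, the difference from sham ranged from -0.58 to 0.52 for Upk3b at 72 h, from -0.12 to 0.18 for Upk1b at 12 h, from -0.31 to 0.49 for Wt1 at 3 h and from -0.29 to 0.57 for Wt1 at 12 h. It ranged from -0.23 to 0.24 for Msln at 72 h and from -0.65 to 0.56 for Muc16 at 3 h. From 3 h to 12 h it ranged from -0.32 to 0.57 for Wt1 and from -0.80 to 2.37 for Msln. Signal near background limits Upk3b, Lrrn4 and Bnc1.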
